A study of Homo sapiens with 15 samples.

Results

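Long internal exons are exons of 500 nt or more that lie between the first and the last exon of a messenger RNA. They are rare in the human genome, where most internal exons are far shorter, and many of them hold a large part of a protein's coding sequence. The members were taken from the deposited exon table as exons of transcripts with 3 to 39 exons that are neither the lowest nor the highest exon of their transcript by position, are at least 500 nt long and have a summed count of at least 20 over the 15 libraries. The rule left 2560 exons, out of 3827 long internal exons before the count minimum, 174353 internal exons of such transcripts and 279143 listed exons. They make up 1.47% of those internal exons. The members were thus selected on their summed count, so their total counts are a description and support nothing below.

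When the spliceosome joins a pair of exons, it leaves an exon junction complex (EJC) on the upstream exon, a short distance before the new junction. The core holds EIF4A3, MAGOH and RBM8A, and CASC3 and RNPS1 are peripheral proteins of the complex. The complex helps export, localisation and translation of the messenger RNA and marks it for nonsense-mediated decay, until translating ribosomes remove it. A long exon ends at a single downstream junction as a short one does, so by that textbook account it offers a single canonical site however long it is.

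Footprints were made by RIPiT, a purification through a FLAG tag on the first EJC protein followed by an antibody against the second, and RNA fragments protected from RNase I were sequenced. The host was HEK293 Flp-In TRex, a human embryonic kidney line, with stably expressed FLAG-CASC3, FLAG-RNPS1 or FLAG-MAGOH, so in the comparisons of crosslinked CASC3 and RNPS1 protein and cell line cannot be told apart. The native MAGOH-CASC3 and MAGOH-RNPS1 libraries both came from the FLAG-MAGOH line. Crosslinked CASC3-EIF4A3 and RNPS1-EIF4A3 footprints came from cells given 0.1% formaldehyde for 10 min and lysed in denaturing buffer, either with cycloheximide (an inhibitor of translation elongation, 100 µg/ml for 3 h) or without it, with 2 libraries per group. Native footprints, from cells without formaldehyde lysed in non-denaturing isotonic buffer, were made once each for CASC3-EIF4A3, RNPS1-EIF4A3, MAGOH-CASC3, MAGOH-RNPS1 and MAGOH-EIF4A3. The 2 RNA-Seq libraries came from cells with no fusion protein, no cycloheximide and no formaldehyde, after rRNA removal and base hydrolysis of the RNA. Whether the 2 libraries of a group come from separate cultures is not in the labels, and the p-values reflect library-to-library spread alone, which may be technical.

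Exon counts per library summed to between 467700 and 8056882, and members were detected (at least 1 count) at rates between 84.8% and 99.3% of 2560. The shallowest library, the second of crosslinked RNPS1 with cycloheximide, stood apart from the others: its log2 CPM (its exon counts scaled to a common library total) correlated with its replicate over the members at r = 0.66, against 0.827 to 0.947 in the other pairs. Counts of members called in the comparisons it touches are given with and without it. VIM (1035 and 1009 CPM in RNA-Seq), CDH2, KRT8, KRT18 and INA, markers known in this line, were present, and NEFM was at 0.873 and 0 CPM. PTPRC, CD3E and ALB, markers of blood and liver cells, had no RNA-Seq count and HBB had 0.873 and 0 CPM. PECAM1, a marker of endothelial cells, had 4.36 and 2.54 CPM in RNA-Seq, and COL1A1, a collagen gene of fibroblasts, had 6.95 to 47.5 CPM in footprints and 8.73 and 9.30 in RNA-Seq.

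The 2560 exons belonged to 2169 transcripts, of which 1845 held a single member and 324 held more, up to 10. Lengths ran from 500 to 10489 nt with a median of 816.5 nt, and 1095 members were under 750 nt, 541 were 750 to under 1000 nt, 670 were 1000 to under 2000 nt and 254 were 2000 nt or longer. In GENCODE v29 (GRCh38, hg38) 2530 members had the same coordinates in their transcript. Of these, 1723 were wholly coding, 682 held coding sequence and part of a UTR, 34 lay wholly in a UTR and 91 were in transcripts without coding sequence. Their median GC content was 54.2%, against 49.4% in the internal exons under 500 nt of the same transcripts. Overlap with another listed exon was found for 251 members, whose reads may be counted for more than 1 transcript. At the length threshold, the 38 members less than 6 nt above it had a median total of 383.5 counts and 35.2 footprint counts per RNA-Seq count, and the 42 exons up to 6 nt below it had 353.5 and 33.0. At the count threshold, 45 members had a total of 20 to 24 and 48 long exons just outside had 15 to 19.

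The 3' ends of 8 long internal exons are shown because the canonical EJC site lies there and because these exons cover the range of densities described below. Each run is the last 60 nt of the exon in the RNA's sense (GENCODE v29 transcripts, GRCh38), and capitals mark the bases 20 to 28 nt before the exon's 3' end, around the place where splicing is known to leave the complex. All 8 exons are wholly coding. The deposited values are sums per exon and do not show where in the exon the reads lie.
SRRM2 (exon 11 of 15, chr16:2768202-2768261, + strand): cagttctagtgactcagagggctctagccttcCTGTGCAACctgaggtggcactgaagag
SPEN (exon 11 of 15, chr1:15936207-15936266, + strand): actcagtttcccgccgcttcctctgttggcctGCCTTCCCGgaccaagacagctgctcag
MKI67 (exon 13 of 15, chr10:128102579-128102638, - strand): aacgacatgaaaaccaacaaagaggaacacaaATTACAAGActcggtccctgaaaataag
MAP1B (exon 5 of 7, chr5:72200308-72200367, + strand): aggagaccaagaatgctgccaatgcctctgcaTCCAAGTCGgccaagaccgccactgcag
CASC5 (exon 11 of 27, chr15:40625581-40625640, + strand): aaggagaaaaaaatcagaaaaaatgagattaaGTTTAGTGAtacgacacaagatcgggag
ZNF711 (exon 4 of 9, chrX:85255742-85255801, + strand): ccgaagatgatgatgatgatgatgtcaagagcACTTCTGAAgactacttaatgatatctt
TAF15 (exon 15 of 16, chr17:35844979-35845038, + strand): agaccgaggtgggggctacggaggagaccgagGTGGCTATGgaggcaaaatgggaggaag
EIF3A (exon 19 of 22, chr10:119041994-119042053, - strand): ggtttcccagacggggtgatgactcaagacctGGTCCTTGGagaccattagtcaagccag

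The first comparison asked how densely footprints covered long internal exons, relative to the other internal exons of the same transcripts and to RNA-Seq. Per nucleotide and summed over all members, long internal exons carried fewer footprint counts than their shorter neighbours in every footprint library, and about as many as the neighbours in RNA-Seq. The density ratio (counts per nt of the 2560 members over counts per nt of the 21993 other internal exons of their transcripts) was 42.9% and 28.8% in crosslinked CASC3, 45.3% and 38.5% in crosslinked RNPS1 and 103% in both RNA-Seq libraries. With cycloheximide it was 36.5% and 26.5% in CASC3 and 59.9% and 86.0% in RNPS1. Native libraries had 66.7% in CASC3-EIF4A3, 56.2% in RNPS1-EIF4A3, 69.2% in MAGOH-CASC3, 69.3% in MAGOH-RNPS1 and 73.3% in MAGOH-EIF4A3. All 13 footprint libraries lay below both RNA-Seq libraries. As a median over transcripts the log2 ratio ran from -1.59 to 0.04 in footprints and was 0.24 and 0.29 in RNA-Seq. The highest of these footprint values was that of the second cycloheximide library of RNPS1. By that median RNA-Seq lay above the neighbours. The footprint libraries pool different protein pairs, lysis conditions and treatments. RNA-Seq also differed from them in cell line and RNA preparation, and these cannot be told apart from the footprints themselves. On the log2 scale the mean was -0.98 ± 0.54 in footprints (SD, n = 13) and 0.04 ± 0.0042 in RNA-Seq (SD, n = 2). The difference was -1.02 (exact two-sided permutation test over libraries, p = 0.019, the smallest it can give; 0.0381 after Benjamini-Hochberg adjustment over 2 tests). Without the count minimum on the members, the RNA-Seq mean was -0.14, so its closeness to the neighbours depends on that minimum. The difference was then -1.03.

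The size of that gap, and its call, rest on the comparator. Against all internal exons under 500 nt of any transcript, a comparator added after the values had been seen, the mean log2 density ratio of the members was -0.39 ± 0.50 in footprints (SD, n = 13) and 0.20 ± 0.012 in RNA-Seq (SD, n = 2). The difference of -0.59 was not called (exact two-sided permutation test, p = 0.133). The 4 untreated crosslinked libraries, from -1.02 to -0.47, lay below RNA-Seq there too. The native libraries ran from -0.48 to 0.19 and reached RNA-Seq, which was at 0.19 and 0.21, and the second cycloheximide library of RNPS1, at 0.42, lay above it.

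Counted per exon instead, a long internal exon held more footprint counts than a shorter neighbour, but by less than its length. Members were on average 7.96 times as long as the other internal exons of their transcripts (1123 nt against 141 nt). In RNA-Seq they held 8.17 and 8.20 times as many counts per exon, close to that ratio of lengths. In untreated crosslinked libraries the ratio of counts per exon was 3.42 and 2.29 for CASC3 and 3.60 and 3.06 for RNPS1, and in the native libraries it was between 4.47 and 5.83. The values in the crosslinked libraries therefore lay between equal counts per exon and equal counts per nucleotide.

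**Figure D1:**
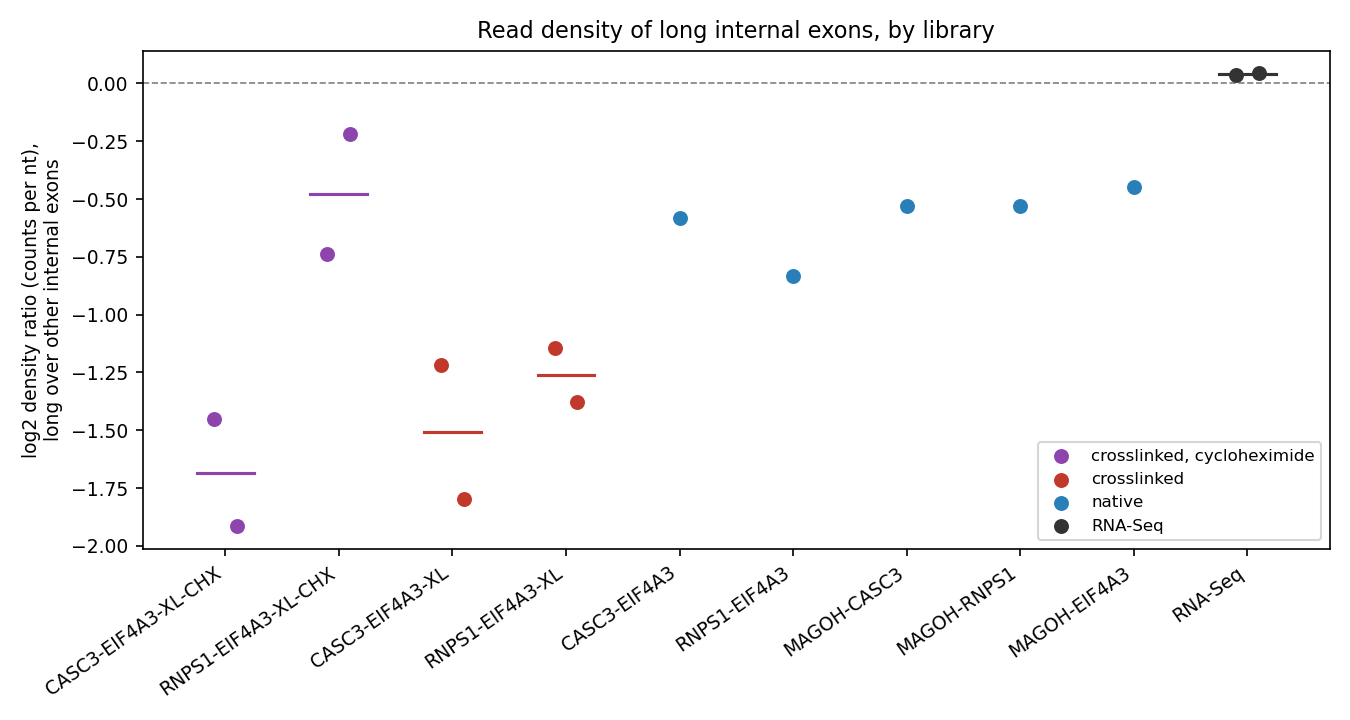
Log2 density ratio (counts per nt of long internal exons over the other internal exons of the same transcripts, vertical axis) in each of the 15 libraries, by group. Points are libraries and horizontal bars are means of groups with 2 libraries; all 13 footprint libraries lie below the RNA-Seq libraries, which sit at 0.04.

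The share of internal-exon counts in long internal exons was a weaker contrast. It was 8.46% and 5.95% in crosslinked CASC3, 7.28% and 6.05% in crosslinked RNPS1 and 12.9% and 12.8% in RNA-Seq. With cycloheximide it was 7.02% and 5.78% in CASC3 and 10.1% and 14.7% in RNPS1, and native libraries ran from 8.40% to 12.8%. The mean difference between footprints and RNA-Seq was -3.57 percentage points (exact two-sided permutation test, p = 0.133, adjusted p = 0.133, n = 13 and 2). The second cycloheximide library of RNPS1 lay above both RNA-Seq libraries, and native MAGOH-EIF4A3, at 12.78%, lay between the RNA-Seq libraries at 12.76% and 12.89%. Without the second cycloheximide library of RNPS1 the difference was -4.02 percentage points with p = 0.044 by the same exact test. As a share of all exon counts the difference turned to 1.65 percentage points (exact permutation p = 0.114). In that denominator first and last exons count too, and these took 15.1% to 34.8% of footprint counts and 42.2% to 43.8% of RNA-Seq counts.

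The gap to the same-transcript neighbours widened with length. For members under 750 nt the mean log2 density ratio was -0.71 in untreated crosslinked libraries (from -0.99 to -0.51), -0.19 in native libraries (from -0.31 to -0.13) and 0.04 to 0.07 in RNA-Seq. At 750 to under 1000 nt it was -1.17 in crosslinked, -0.51 in native and -0.09 to -0.08 in RNA-Seq libraries. At 1000 to under 2000 nt the crosslinked mean was -1.59 and the native mean -0.77, with RNA-Seq at -0.06 to -0.01. Members of 2000 nt or more reached -2.26 in crosslinked libraries (from -2.82 to -2.02) and -0.96 in native libraries (from -1.34 to -0.62), while RNA-Seq was at -0.04. Each of the 4 untreated crosslinked libraries was lower at every step of length, while the RNA-Seq libraries stayed between -0.09 and 0.07. In the 3 longer classes all 13 footprint libraries lay below RNA-Seq by this comparator. In the shortest class the second cycloheximide library of RNPS1, at 0.15, was the exception. The fall in crosslinked libraries was not confined to long exons. Over all internal exons, with no count minimum, untreated crosslinked density over RNA-Seq density was 1.75 in exons of up to 60 nt. It was 0.91 in the longest class under 500 nt, 0.81 at 500 to under 750 nt and 0.29 at 2000 nt or more. The native ratio was 1.28, 1.02, 1.09 and 0.64 in the same classes, so it did not fall at every step.

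Against all internal exons under 500 nt the order of native footprints and RNA-Seq turned in the shortest class. Members under 750 nt had a mean of -0.22 in untreated crosslinked libraries, 0.28 in native libraries and 0.18 in RNA-Seq, and 5 of 13 footprint libraries lay above both RNA-Seq libraries. At 750 to under 1000 nt the means were -0.63 in crosslinked, 0.02 in native and 0.03 in RNA-Seq libraries, with 4 footprint libraries above RNA-Seq. At 1000 to under 2000 nt they were -0.95, -0.23 and 0.07, with 1 above, and at 2000 nt or more -1.46, -0.28 and 0.42, with 0 above. The 4 untreated crosslinked libraries lay below RNA-Seq and were lower at every step of length by both comparators.

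**Figure D2:**
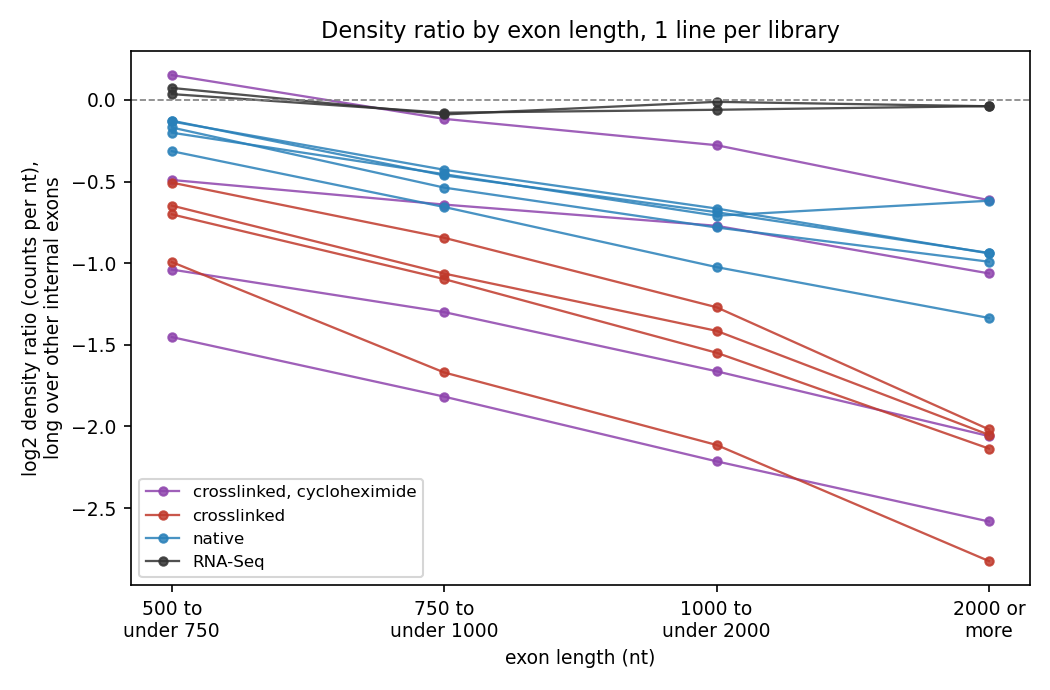
Log2 density ratio of long internal exons over the other internal exons of the same transcripts (vertical axis) for 4 classes of exon length in nt (horizontal axis), with 1 line per library. Crosslinked lines fall from a mean of -0.71 to a mean of -2.26 while both RNA-Seq lines stay near 0.

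Crosslinked and native footprints differed as well. Over all members the mean log2 density ratio was -1.38 ± 0.29 in the 4 untreated crosslinked libraries and -0.58 ± 0.15 in the 5 native ones (SD). Against same-transcript neighbours the groups did not overlap, and the difference was -0.80 (exact two-sided permutation test, p = 0.0159, the smallest it can give). The comparison was added after the values had been seen. Against all internal exons under 500 nt the groups overlapped, with 1 crosslinked CASC3 library at -0.472 and native RNPS1-EIF4A3 at -0.483. The difference there was -0.73 (exact two-sided permutation test, p = 0.0317). In their share of internal-exon counts the same libraries overlapped too, at 8.46% and 8.40%. The difference in share was -4.07 percentage points (exact two-sided permutation test, p = 0.0317). Within the same protein pair, against same-transcript neighbours, CASC3-EIF4A3 was at -1.22 and -1.80 crosslinked and at -0.58 native. RNPS1-EIF4A3 was at -1.14 and -1.38 crosslinked and at -0.83 native. Formaldehyde and lysis buffer changed together between these groups and cannot be told apart.

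Single members showed the same order. A member was compared with the other internal exons of its own transcript where those held at least 20 counts in each of the crosslinked, native and RNA-Seq pools, which 1221 members allowed. The median density ratio was 0.545 in pooled untreated crosslinked, 0.874 in pooled native and 1.21 in pooled RNA-Seq counts. The ratio was under 1 for 1104 of them in crosslinked, 745 in native and 370 in RNA-Seq pools. It was lower in crosslinked than in RNA-Seq for 1091 of the 1221 and lower in crosslinked than in native for 1080.

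The untreated crosslinked mean lay below RNA-Seq, relative to same-transcript neighbours, in each class of position and coding status, though not every footprint library did. Wholly coding members had a mean log2 density ratio of -1.28 in untreated crosslinked libraries, -0.46 in native libraries and 0.22 in RNA-Seq (n = 1723 exons). Members that hold part of a UTR had -1.56, -0.73 and -0.29 to -0.27 (n = 682). The 34 members that lie wholly in a UTR had -1.95 in crosslinked, -1.71 in native and -1.43 to -1.35 in RNA-Seq libraries, so there RNA-Seq was low too and 11 of 13 footprint libraries lay below it. The 91 members of transcripts without coding sequence had -1.49 in crosslinked, -1.40 in native and -0.73 to -0.63 in RNA-Seq libraries, and 1 CASC3 library with cycloheximide, at -0.50, lay above RNA-Seq. Second exons (719) had -1.46 in crosslinked libraries and -0.02 to 0.02 in RNA-Seq, and penultimate exons (402) had -1.75 and -0.56 to -0.55. In the 48 members of transcripts that GENCODE types as nonsense-mediated decay the crosslinked mean was -1.58, the native mean was -1.18 and RNA-Seq was at -1.32 to -1.21, so the native mean lay above RNA-Seq, and only 6 of 13 footprint libraries lay below RNA-Seq.

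Base composition moved with the size of the gap. Members were split into 3 classes of GC content of about equal size. In the lowest class (up to 47.8%) the mean log2 density ratio was -1.74 in untreated crosslinked libraries, -0.87 in native libraries and 0.22 in RNA-Seq. In the highest class (above 60.4%) it was -1.09 in crosslinked, -0.39 in native and -0.35 in RNA-Seq libraries, so the native mean differed from RNA-Seq by -0.04 there and 10 of 13 footprint libraries lay below RNA-Seq. Within each class of GC content the longer members were lower in every untreated crosslinked library. At 1000 nt or more, set against the members under 1000 nt, crosslinked CASC3 had -2.07 and -2.77 against -0.85 and -1.53 in the lowest class, and -1.34 and -2.10 against -0.71 and -1.05 in the highest class. The part of base composition in these gaps was not tested.

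The 10 members with the most counts included the exons of SRRM2, SPEN, MKI67 and MAP1B. SRRM2 encodes a large serine- and arginine-rich protein of the spliceosome, and its exon of 6701 nt holds most of the coding sequence. It had 749 and 628.5 CPM in crosslinked CASC3, 875 and 1064 in crosslinked RNPS1, 1249 to 1879 in the native libraries and 1171 and 989.5 in RNA-Seq. Against the other internal exons of SRRM2 its density was 0.125 to 0.185 in the untreated crosslinked libraries, 0.240 to 0.369 in native libraries and 2.23 to 2.27 in RNA-Seq. Per nucleotide it was thus below its neighbours in these footprints and above them in RNA-Seq. Fold changes here and below use edgeR's TMM scaling between libraries. CPM do not, so fold changes and CPM pairs can differ in size and even in sign. The level of the SRRM2 exon was lower in CASC3 than in RNA-Seq (-1.39 ± 0.50, edgeR adjusted p = 0.0339) and was not called in RNPS1 (-0.98 ± 0.49, edgeR adjusted p = 0.108). With cycloheximide it had 246 and 458 CPM in CASC3 and 937 and 1261 in RNPS1.

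SPEN encodes a transcriptional corepressor with RNA recognition motifs. Its exon of 8176 nt had 1002 and 848 CPM in crosslinked CASC3, 233 and 179 in crosslinked RNPS1 and 886 and 855 in RNA-Seq. Against the other internal exons of SPEN its density was 0.200 and 0.0714 in crosslinked CASC3, 0.193 and 0.164 in crosslinked RNPS1, 0.485 to 1.197 in native libraries and 1.24 and 1.38 in RNA-Seq, so per nucleotide it was low in both crosslinked pairs. In level it fell in RNPS1 against RNA-Seq (log2 fold change -2.91 ± 0.50 SE, n = 2 per group, edgeR adjusted p = 0.000194) and was not called in CASC3 against RNA-Seq (-0.66 ± 0.47, edgeR adjusted p = 0.266). By CPM, CASC3 and RNA-Seq overlapped, and the negative CASC3 value comes with the TMM scaling. Although the CASC3 and RNPS1 libraries did not overlap, CASC3 against RNPS1 was not called either (2.26 ± 0.79, edgeR adjusted p = 0.308). With cycloheximide the values of the 2 proteins overlapped, at 716 and 599.6 CPM in CASC3 and 644 and 1358 in RNPS1.

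MKI67 encodes the Ki-67 protein that coats mitotic chromosomes. Its exon of 6845 nt had 82.6 and 68.0 CPM in crosslinked CASC3, 77.0 and 24.4 in crosslinked RNPS1, 349 to 1896 in native libraries and 571 and 519 in RNA-Seq. It fell against RNA-Seq in CASC3 (-3.60 ± 0.54, edgeR adjusted p = 0.000136, n = 2 per group) and in RNPS1 (-4.28 ± 0.55, edgeR adjusted p = 1.42e-05). MAP1B, a microtubule-associated protein of neurons, followed the same pattern with an exon of 6502 nt. It had 68.9 and 50.4 CPM in crosslinked CASC3, 51.0 and 14.2 in crosslinked RNPS1, 272 to 593 in native libraries and 296 and 308 in RNA-Seq. For both exons every untreated crosslinked library lay below every native and RNA-Seq library.

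The other 6 of the 10 were not called lower in either contrast. ZNF711, a zinc finger transcription factor gene on the X chromosome, has a member of 543 nt with 637 and 429.5 CPM in crosslinked CASC3, 884 and 580.5 in crosslinked RNPS1, 447 to 1602 in native libraries and 199 and 201 in RNA-Seq. All untreated footprint libraries lay above RNA-Seq, but neither crosslinked contrast passed (edgeR adjusted p = 0.249 for CASC3 and 0.0622 for RNPS1). PRRC2A, which encodes an RNA-binding protein, had 476 and 524 CPM in crosslinked CASC3, 219 and 334 in crosslinked RNPS1 and 211 and 186 in RNA-Seq for its exon of 1854 nt, and was not called either. KMT2B (a histone methyltransferase), PHRF1, BRD2 (a bromodomain protein) and ANKRD11 (a chromatin regulator) completed the 10. Of these, PHRF1 rose in level in RNPS1 (1.61 ± 0.42, edgeR adjusted p = 0.00566). Against the other internal exons of its transcript, its density was 0.629 and 0.625 in crosslinked RNPS1. In RNA-Seq it was 1.29 and 0.941, so the density did not rise.

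**Figure D3:**
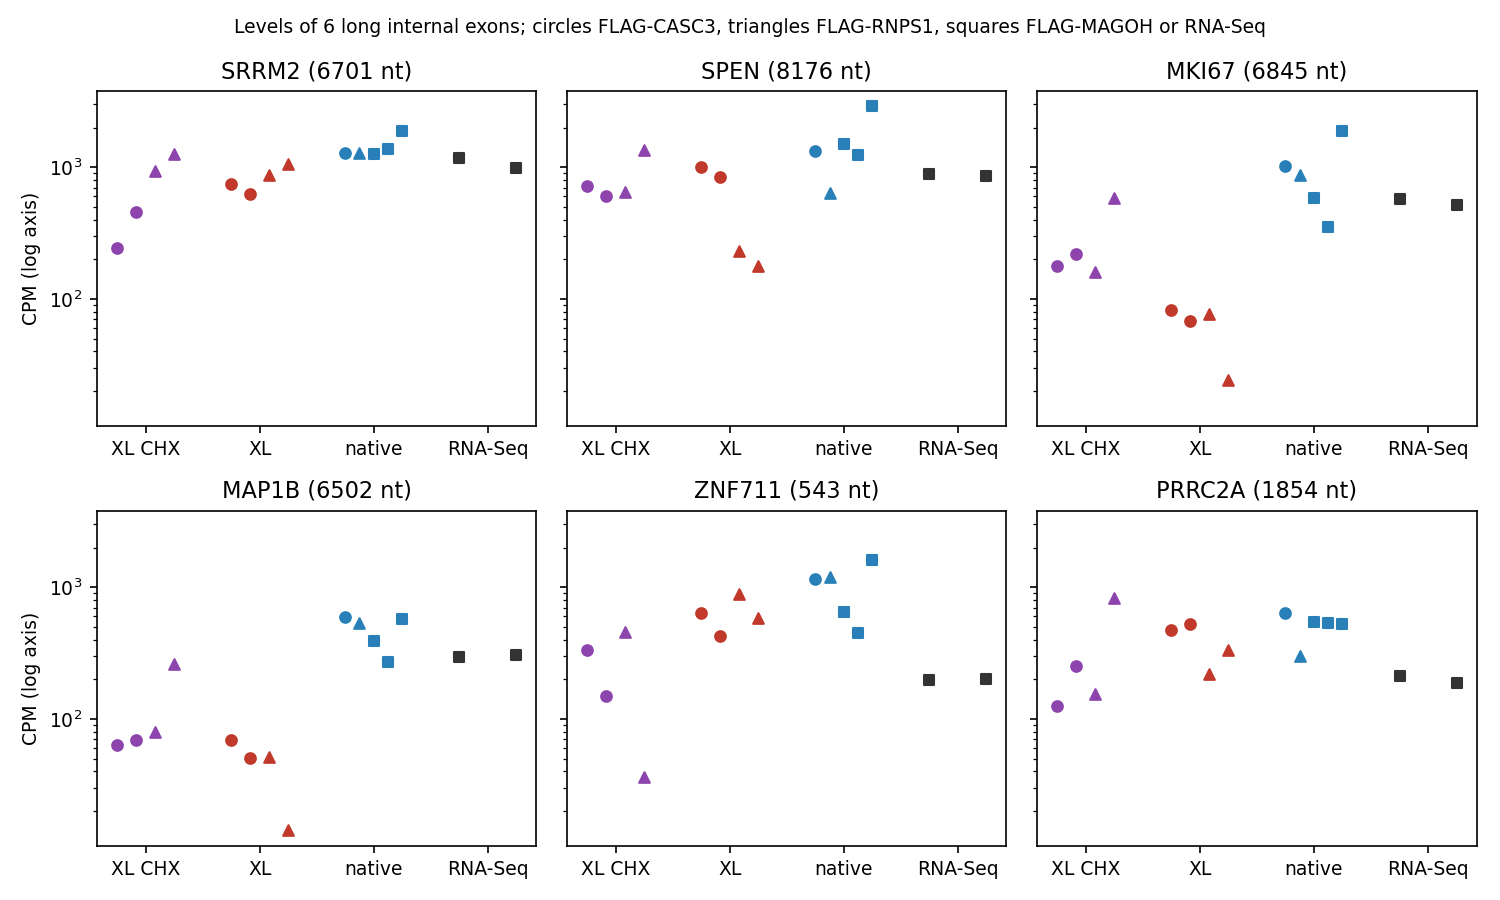
CPM (vertical log axis) of 6 long internal exons in crosslinked libraries with cycloheximide (XL CHX), crosslinked libraries without it (XL), native libraries and RNA-Seq, with 1 point per library. MKI67 and MAP1B are lowest in the untreated crosslinked libraries, SPEN has its lowest CPM in crosslinked RNPS1 and ZNF711 lies above RNA-Seq in all untreated footprints.

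The longest members were exons of CMYA5 (10489 nt), STARD9 (10227 nt), MAP1A (8185 nt), SPEN and IGFN1 (7539 nt). STARD9, a kinesin of the mitotic spindle, had 48.7 and 28.97 CPM in crosslinked CASC3, 43.8 and 47.3 in crosslinked RNPS1 and 121 and 101 in RNA-Seq, and fell in both contrasts (-2.27 ± 0.41 and -2.10 ± 0.39, edgeR adjusted p = 0.000512 and 0.000404). CMYA5, IGFN1 (genes of striated muscle) and MAP1A (a neuronal microtubule-associated protein) stayed at or under 14.97 CPM in all libraries, and CMYA5 and IGFN1 did not pass the filter of either fit.

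Exon by exon, crosslinked footprints were tested against RNA-Seq over all 38550 exons that passed the filter, which 1643 members did. In CASC3, 114 members (6.94%) were higher and 467 (28.4%) lower, where 20.6% of all exons tested were higher and 21.8% lower. In RNPS1, 154 (9.37%) were higher and 30.4% lower, where 25.8% of all were higher and 24.5% lower. The median log2 fold change of the members was -0.57 in CASC3 and -0.52 in RNPS1, against 0.36 and 0.52 for all exons. These counts describe the members that passed. The calls split by base composition. In the lowest class of GC content 0 members were higher and 329 lower in CASC3, and 0 higher and 354 lower in RNPS1. In the highest class 100 were higher and 15 lower in CASC3, and 124 higher and 24 lower in RNPS1. Across 1629 members the log2 fold change correlated with GC content at r = 0.71 in CASC3 and 0.68 in RNPS1, as a description of exons that share libraries. The 21149 other internal exons tested, under 500 nt, had r = 0.43 in CASC3 and 0.37 in RNPS1. In CASC3 their medians were -0.07 in the lowest and 1.84 in the highest class, where members had -1.77 and 0.54. Of these other exons 27.6% were higher and 6.70% lower in CASC3, and 37.1% and 7.58% in RNPS1. The direction depends on the filter: among the 839 members that averaged 10 counts in every group, 176 were higher and 106 lower in CASC3 and 295 were higher and 121 lower in RNPS1, with medians of 0.33 and 0.55 against 0.20 and 0.20 for all 7788 exons tested, of which 19.7% were higher and 21.2% lower in CASC3 and 29.4% higher and 28.0% lower in RNPS1. The density ratios above use all 2560 members and not this filter, but the members were themselves chosen on their summed count. Without that minimum the mean log2 density ratio was -1.17 in footprints and -0.14 in RNA-Seq, a difference of -1.03.

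The 5 members named as lowest in CASC3 ranged in length from 626 to 5001 nt and in GC content from 36.5% to 54.6%. CASC5 (KNL1 in GENCODE v29), which builds the outer kinetochore, has an exon of 5001 nt with a GC content of 36.5%. It had 8.48 and 2.52 CPM in crosslinked CASC3, 8.08 and 4.59 in crosslinked RNPS1, 10.8 to 28.4 in native libraries and 120.5 and 103 in RNA-Seq. It fell in CASC3 (log2 fold change -5.05 ± 0.54) and in RNPS1 (-4.99 ± 0.49) (edgeR adjusted p = 2.83e-05 and 1.49e-06). The exon of CEP97, a gene of centriole biology, had no count in either crosslinked CASC3 library against 12.2 and 10.1 CPM in RNA-Seq, at least 6.47-fold lower against a floor of 3 counts over the CASC3 group. LRIF1, GPC3 (a cell surface proteoglycan) and FUT11 (a fucosyltransferase) were the others named as lower in CASC3. In RNPS1 they were VCAN (a matrix proteoglycan), FAT4 (a protocadherin), CENPF and ZNF571. CENPF, a kinetochore protein of mitosis, had 31.9 and 9.41 CPM in RNPS1 and 280 and 234 in RNA-Seq (-4.50 ± 0.55, edgeR adjusted p = 8.96e-06).

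The 7 members named as highest in the 2 contrasts were 532 to 705 nt long, and all but ZC3H13 (49.3% GC) had a GC content of 62.3% or more. TAF15 encodes an RNA-binding protein, and its exon of 562 nt codes for glycine-rich repeats. It had 201 and 409 CPM in crosslinked CASC3, 128 and 182 in crosslinked RNPS1, 34.1 to 115 in native libraries and 3.49 and 11.0 in RNA-Seq. The log2 fold change was 4.68 ± 0.62 in CASC3 and 3.58 ± 0.61 in RNPS1 (edgeR adjusted p = 5.96e-05 and 0.000179). WNK2, a kinase gene, had no RNA-Seq count and 14.8 and 8.82 CPM in CASC3 and 12.8 and 8.21 in RNPS1, at least 9.38-fold and 7.65-fold higher against a floor of 3 counts over the RNA-Seq group. NLGN2, a neuronal adhesion protein, was named as higher in both contrasts. MAP3K10 (a kinase), with 281 and 359 CPM in CASC3 and 18.3 and 14.4 in RNA-Seq, and ZC3H13 (a subunit of the m6A writer complex) were named in CASC3, and the helicase gene PIF1 and the transcription factor gene MLXIPL in RNPS1. These are changes in level. Against the other internal exons of its transcript, TAF15 had a density of 2.16 and 2.35 in CASC3 and 0.151 and 0.601 in RNA-Seq. MAP3K10 had 0.819 and 0.641 in CASC3 and 0.905 and 0.819 in RNA-Seq, so its density did not rise.

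By function, each of the 7 gene lists examined held members that fell in level against RNA-Seq. Such changes include those of the whole transcript. The list counts stand against 28.4% lower among all members tested and 21.8% among all exons in CASC3, and 30.4% and 24.5% in RNPS1. In splicing (26.9% lower in CASC3 and 30.8% in RNPS1) and translation genes (27.3% in both) the shares were near those of all members, and in the other 5 lists they ran from 35.4% to 62.5% in CASC3 and from 53.3% to 62.5% in RNPS1. The tested members of the lists had a median GC content between 40.9% in mitosis and 51.2% in translation genes, against 54.3% for all members tested, and the part of base composition in the list counts was not tested. Among exons averaging 10 counts in every group, chromatin genes turned to 12 higher and 7 lower in CASC3 and 14 higher and 13 lower in RNPS1, and translation genes to 7 higher and 1 lower in CASC3 and 6 higher and 2 lower in RNPS1. Splicing genes then had 4 higher and 5 lower in CASC3 and 4 higher and 4 lower in RNPS1. The mitosis, genome stability, cytoskeleton and nuclear pore lists kept more lower than higher calls in both. Of the mitosis, kinetochore and centrosome genes, 32 exons of 22 genes were members and all were tested. Against RNA-Seq 20 were lower and 0 higher in CASC3, and 18 were lower and 0 higher in RNPS1, with median log2 fold changes of -1.96 and -1.59. ASPM, a spindle pole protein, had 46.6 and 28.97 CPM in CASC3, 22.1 and 11.3 in RNPS1 and 177 and 146 in RNA-Seq. Genome stability and DNA repair genes had 31 members, of which 26 were tested. There 14 were lower and 0 higher in CASC3 and 15 were lower and 0 higher in RNPS1, with medians of -1.66 and -1.55. RIF1, a regulator of replication timing and repair, had 36.0 and 11.3 CPM in CASC3, 24.2 and 7.97 in RNPS1 and 138 and 127 in RNA-Seq.

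Chromatin and transcription regulators had 85 members and 79 tested, with 28 lower and 4 higher in CASC3 and 43 lower and 1 higher in RNPS1 (medians -1.06 and -1.33). BCOR, a corepressor, and ATRX, a chromatin remodeller, were lower in both, BCOR with -1.62 ± 0.43 in CASC3 and -2.02 ± 0.42 in RNPS1 (edgeR adjusted p = 0.00688 and 0.0011). Cytoskeleton, membrane traffic and scaffold genes had 39 members and 30 tested, with 15 lower and 1 higher in CASC3 and 16 lower and 0 higher in RNPS1. GOLGA4, a Golgi tether, had 36.0 and 18.9 CPM in CASC3, 21.7 and 17.9 in RNPS1 and 115 and 122 in RNA-Seq. Of 8 members in nuclear pore genes, all tested, 3 were lower in CASC3 and 5 in RNPS1 and none rose. RANBP2, the large protein of the pore's cytoplasmic filaments, fell in both, with -3.34 ± 0.46 in CASC3 and -3.58 ± 0.44 in RNPS1 (edgeR adjusted p = 7.83e-05 and 8.21e-06).

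Translation, RNA decay and cytoplasmic mRNP genes had medians of -0.35 in CASC3 and -0.73 in RNPS1 over 22 tested of 24 members. In CASC3, 6 were lower and 2 higher, and in RNPS1 6 were lower and 0 higher. EIF3A, the largest subunit of the initiation factor eIF3, has an exon of 779 nt with 159 and 113 CPM in CASC3, 71.0 and 59.9 in RNPS1 and 21.0 and 18.6 in RNA-Seq. It rose in CASC3 (2.03 ± 0.41, edgeR adjusted p = 0.00113) and was not called in RNPS1 (0.90 ± 0.40, edgeR adjusted p = 0.0704). Splicing, transcription termination and RNA processing genes had 26 members, with 7 lower and 3 higher in CASC3 and 8 lower and 2 higher in RNPS1 (medians -0.67 and -0.65). SCAF1, an SR-related protein, rose in level in CASC3 (1.48 ± 0.39, edgeR adjusted p = 0.007). Against the other internal exons of its transcript, its density was 0.398 and 0.233 in CASC3. In RNA-Seq it was 0.869 and 1.11, so the density of SCAF1 did not rise. The EIF3A exon had 1.42 and 0.830 in CASC3 and 0.479 and 0.459 in RNA-Seq, so its density did. Members of these lists also differ in length, with list medians between 780.5 nt for translation and 1690.5 nt for the nuclear pore.

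Within transcripts, exon use compares the change of an exon with the change of its whole transcript, first and last exons included. In CASC3 against RNA-Seq 45 members were higher and 61 lower of 1451 tested, where 10.0% of all exons were higher and 4.06% lower. In RNPS1 against RNA-Seq 135 were higher and 58 lower, where 12.5% of all were higher and 7.77% lower. The members' shares, 3.10% and 4.20% in CASC3 and 9.30% and 3.997% in RNPS1, were lower than those of all exons except for the lower calls in CASC3, which were near the background. Without the first or the second RNA-Seq library only 3 or 5 members were called in CASC3 and 22 or 33 in RNPS1. SMAD9, a signalling factor of the BMP pathway, BEND4 and the cell cycle kinase CDK6 were higher in use in both contrasts, and all 3 members are second exons that hold coding sequence and part of a UTR. SMAD9 rose in use by 2.65 in CASC3 and by 3.19 in RNPS1 on the log2 scale (edgeR adjusted p = 0.000784 and 8.74e-06). ASPM, POLQ (a DNA polymerase of repair) and VCAN were among those lower in use in RNPS1, ASPM with -1.60 (edgeR adjusted p = 0.00103). In each of the 7 gene lists the share lower in use was smaller than the share lower in level. The shares lower in use ran from 6.67% to 25% in CASC3 and from 0% to 21.7% in RNPS1. Those higher in use ran from 0% to 7.69% and from 0% to 4.76%. Mitosis genes had 3 of 31 lower in use in CASC3 and 4 of 31 in RNPS1, with 0 higher in both.

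CASC3 and RNPS1 footprints were compared without cycloheximide to ask whether the 2 forms of the complex differ on these exons. No member was called, 0 higher and 0 lower of 2238 tested by edgeR's quasi-likelihood test, where 0.286% of all 104449 exons were higher and 0.0% lower. At an unadjusted p under 0.05 there were 77 members, and DESeq2's Wald test called 5 higher, where it called 1.67% of all exons higher. Exon use gave 0 members higher and 0 lower of 2148 tested (15 at an unadjusted p under 0.05), where 0.0% of all were called in each direction. The median log2 fold change of members rose with length, being -0.21, -0.20, -0.07 and 0.38 from the shortest to the longest of the 4 length classes, against -0.17 for all exons. In exon use the medians of the same classes were closer together, at -0.16, -0.18, -0.16 and -0.06. The log2 density ratio of members of 2000 nt or more was not higher in CASC3 (-2.05 and -2.82) than in RNPS1 (-2.02 and -2.14). In density the means were -1.51 ± 0.41 in CASC3 and -1.26 ± 0.17 in RNPS1 (log2, SD, n = 2 each), a difference of -0.25 that is smaller than the spread within CASC3 (exact permutation p = 0.667, smallest possible 0.333).

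Dropping the cycloheximide libraries of RNPS1 from the shared fit changed that count. Without the first there were 30 members higher and 4 lower, without the second 27 higher and 4 lower, and with the 4 untreated libraries alone 21 higher and 0 lower. Higher calls were 1.33%, 1.13% and 1.24% of the members tested in these 3 fits, where 2.63%, 1.97% and 3.87% of all exons were higher and 0.704%, 0.565% and 0.493% lower.

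With cycloheximide, CASC3 and RNPS1 moved apart. In CASC3 against RNPS1, 18 members were higher and 163 lower, where 4.48% of all exons were higher and 5.05% lower. The members' median was -0.53, against 0.08 for all exons. The calls split by base composition here too. In the lowest class of GC content 13 members were higher and 14 lower, and in the highest class 2 were higher and 104 lower. The class medians were -0.08 and -1.10. Across 2214 members the log2 fold change correlated with GC content at r = -0.35, against -0.24 in the other internal exons tested. The part of base composition in this difference was not tested. SIRT1, a deacetylase of chromatin, had 82.3 and 131 CPM in CASC3 and 12.6 and 2.14 in RNPS1 (3.80 ± 0.91, edgeR adjusted p = 0.00277). RIOK2 (ribosome assembly), WASF1 (actin assembly) and FBXO33 were among the next highest. Among the lowest, DRD4 had 0.621 and 0.298 CPM in CASC3 and 4.55 and 51.3 in RNPS1 (-5.33 ± 1.06, edgeR adjusted p = 0.000242), so its 2 RNPS1 libraries were far apart. LINC00937, GOLGA6L4, DLGAP2 and GRIN3B were of the same kind. GOLGA6L4 belongs to a family of near-identical copies, so its counts are uncertain.

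Each of these calls needed both CASC3 libraries with cycloheximide, since without either of them 0 members were called. Without the shallow RNPS1 library the counts were 61 higher and 319 lower, where 8.98% of all exons were higher and 8.61% lower. The groups' density means were -1.68 ± 0.33 in CASC3 and -0.48 ± 0.37 in RNPS1 (log2, SD, n = 2 each). They did not overlap and differed by -1.21 (exact permutation p = 0.333, the smallest that 2 against 2 libraries can give).

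Cycloheximide was compared with no treatment to ask how footprints change when translation is stopped. In CASC3, 110 members were higher and 186 lower with cycloheximide, where 7.22% of all exons were higher and 11.3% lower. Without the shallow RNPS1 library, which shares the fit, 382 were higher and 389 lower, where 16.6% of all were higher and 15.7% lower. The split turned with the scaling: DESeq2 size factors gave 209 higher and 113 lower, and moved the median of all exons to 0.65, against 0.20 with TMM. Relative to that median, members were at -0.07 with TMM and at -0.06 with size factors, so with the main filter neither scaling set them far from other exons. The stricter filter did. Among exons averaging 10 counts in every group the members' median was 0.57, against -0.05 for all exons. There 3.29% of members were higher and 0.774% lower, where 1.72% of all exons were higher and 3.39% lower.

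Base composition separated the members that rose from those that fell. The higher members had a median GC content of 41.3% and the lower ones 68.7%, where tested members had 53.8%. In the lowest class of GC content 91 members were higher and 1 lower, and in the highest class 1 was higher and 168 lower, with medians of 1.21 and -1.41. Across 2214 members the log2 fold change correlated with GC content at r = -0.71, as a description of exons that share libraries. The other internal exons tested showed the same kind of relation (r = -0.61 over 72916 exons under 500 nt, with medians of 1.51 and -1.81 in the same GC classes). Over the members, the mean GC content weighted by counts was 49.3% and 51.4% in treated CASC3 libraries and 57.3% and 58.9% in untreated ones, and 50.6% and 50.7% in RNA-Seq. What part of the response is base composition was not tested.

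The 3' ends of 3 exons that rose and 3 that fell with cycloheximide in CASC3 are shown for that difference in composition, with capitals at the same 9 bases.
SIRT1 (exon 8 of 9, chr10:67912972-67913031, + strand): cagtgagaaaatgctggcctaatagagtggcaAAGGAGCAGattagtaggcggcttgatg
RIOK2 (exon 8 of 10, chr5:97167467-97167526, - strand): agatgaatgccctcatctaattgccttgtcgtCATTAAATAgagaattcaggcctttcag
FBXO33 (exon 3 of 4, chr14:39401176-39401235, - strand): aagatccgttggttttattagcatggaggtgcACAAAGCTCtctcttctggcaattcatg
DRD4 (exon 3 of 4, chr11:640247-640306, + strand): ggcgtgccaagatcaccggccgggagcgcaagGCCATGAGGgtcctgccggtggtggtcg
GRIN3B (exon 2 of 9, chr19:1003663-1003722, + strand): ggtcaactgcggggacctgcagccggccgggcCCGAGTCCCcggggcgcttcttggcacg
PPP1R3E (exon 2 of 5, chr14:23301298-23301357, - strand): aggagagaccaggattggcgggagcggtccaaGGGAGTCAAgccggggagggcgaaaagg

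SIRT1 rose in CASC3 to 82.3 and 131 CPM with cycloheximide, against 4.24 and 3.78 CPM without it (4.78 ± 1.01, edgeR adjusted p = 0.000159). Its exon has a GC content of 39.6%, and the call held without any single library. FBXO33 had 23.7 and 30.9 CPM with cycloheximide and 2.12 and 0 without it. CEP97 had 19.4 and 10.9 CPM with cycloheximide and no count in either untreated library, at least 8.99-fold higher against a floor of 3 counts over the untreated group. RBM48 and LRIF1 were the others named. NUP153, a nuclear pore protein, and WNK1, a kinase, rose too (3.15 ± 0.86 and 2.52 ± 0.83, edgeR adjusted p = 0.00435 and 0.0214), as did RIF1 (3.03 ± 0.86, edgeR adjusted p = 0.00622). DRD4, a dopamine receptor gene with an exon of 77.1% GC, had 0.621 and 0.298 CPM with cycloheximide and 20.1 and 23.9 without it (-5.44 ± 1.06, edgeR adjusted p = 3.29e-05). PPP1R3E, CERS1 (ceramide synthesis), GOLGA6L4 and LINC00937 were the others named as lower.

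**Figure D4:**
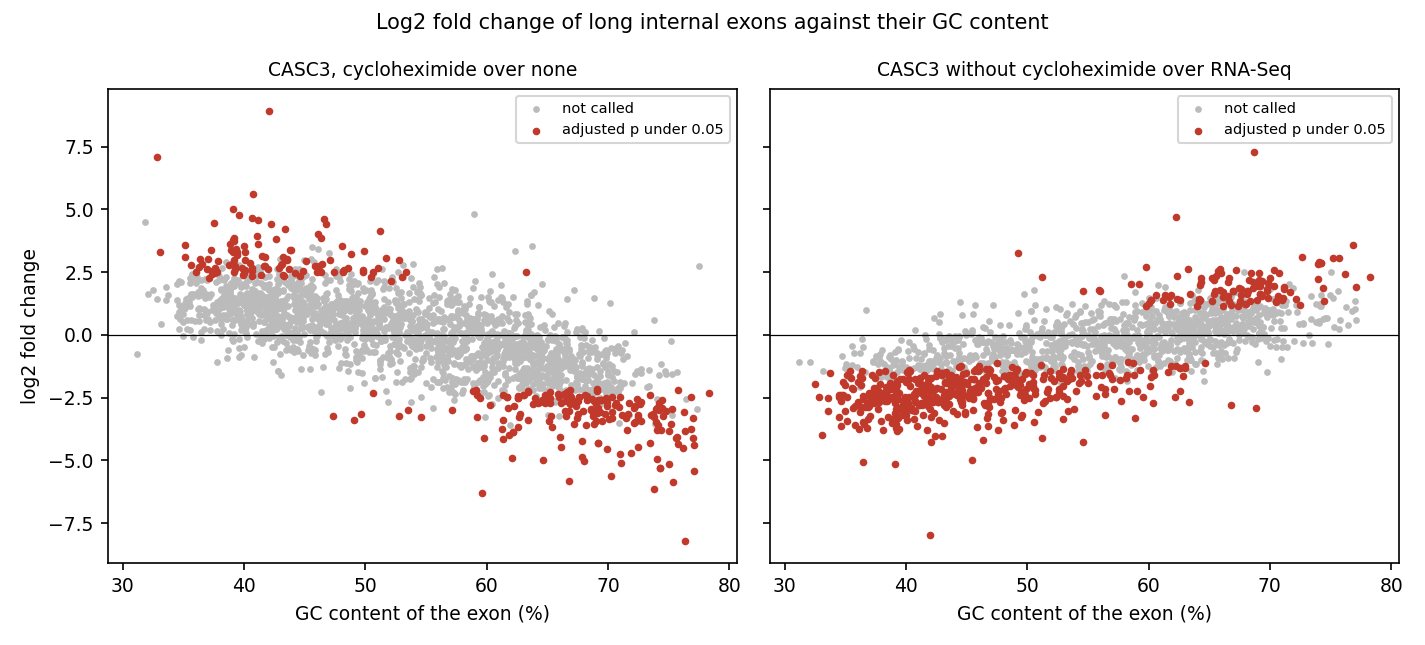
Log2 fold change (vertical axis) of long internal exons against their GC content in percent (horizontal axis), for CASC3 with cycloheximide over none (left) and for untreated crosslinked CASC3 over RNA-Seq (right); red points passed an edgeR adjusted p of 0.05. The untreated CASC3 libraries enter both panels, with opposite sign.

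In the lists, few members were called higher in CASC3 with cycloheximide, where 7.22% of all exons and 4.92% of all members tested were higher. The counts were 4 of 31 tested in genome stability, 1 of 32 in mitosis, 2 of 26 in splicing and RNA processing, 3 of 85 in chromatin, 0 of 24 in translation, 2 of 37 in cytoskeleton and traffic and 2 of 8 in nuclear pore genes. The lower calls were 2 chromatin members. Since the split over all members turned with the scaling and moved with GC content, no direction is read from these counts. With cycloheximide, CASC3 against RNPS1 gave 0 higher in every list, and 1 mitosis, 2 chromatin, 1 translation and 2 cytoskeleton members lower. No list had a call in CASC3 against RNPS1 without cycloheximide, in the RNPS1 response or in the interaction. The exons called in the RNPS1 response and in the interaction, PCLO and PLEC among them, belong to genes outside these lists.

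RNPS1 with cycloheximide differed from RNPS1 without it in the density of long internal exons as a whole. The log2 density ratio was -0.74 and -0.22 with cycloheximide and -1.14 and -1.38 without it, a rise of 0.78 in the mean with no overlap (exact permutation p = 0.333, the smallest possible). Without the shallow library the treated value was -0.74, still above both untreated libraries. In CASC3 the same difference was -0.18, smaller than the spread within either group. Exon by exon 3 members were higher and 0 lower in RNPS1, where 0.0756% of all exons were higher and 0.121% lower. DESeq2's Wald test called 63 higher and 0 lower, where it called 1.19% of all exons higher and 0.567% lower. Without the shallow library edgeR called 422 higher and 136 lower, where 8.36% of all were higher and 9.38% lower. Without either untreated RNPS1 library, and with the 4 RNPS1 libraries alone, 0 members were called. The members' median was 0.57, against -0.03 for all exons, and it rose with length (0.26, 0.50, 0.82 and 1.48 over the 4 classes). It also fell with GC content, at 1.29, 0.53 and -0.31 from the lowest to the highest class. Across 2214 members the log2 fold change correlated with GC content at r = -0.66, as a description. The other internal exons tested had r = -0.64. The part of base composition in the RNPS1 response was not tested.

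The 3 called exons were AIM1 (CRYBG1 in GENCODE v29) and exons 2 and 3 of PCLO, a scaffold protein of presynaptic active zones. Exon 2 of PCLO, with 1645 nt, had 63.9 and 141 CPM with cycloheximide and 8.50 and 5.31 without it (3.75 ± 0.91, edgeR adjusted p = 0.039). AIM1 had 11.3 and 4.28 CPM with cycloheximide and 0.425 and 0.241 without it (4.62 ± 1.18, edgeR adjusted p = 0.0499). When 1 of the 8 libraries was left out in turn, the call was kept in 2 of 8 fits for exon 2 of PCLO and in 1 of 8 for AIM1. MKI67 had 159 and 579 CPM with cycloheximide and 77.0 and 24.4 without it, and did not pass (2.75 ± 0.82, edgeR adjusted p = 0.0875).

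The difference between the cycloheximide responses of CASC3 and RNPS1 was tested as an interaction. It was called for 0 members higher and 3 lower of 2238, where 0.0201% of all exons were higher and 0.374% lower, with a member median of -0.52 against 0.18 for all exons. The 3 exons, of DRD4, LINC00937 and PLEC, all have a GC content of 70.3% or more. Each had its higher RNPS1 value with cycloheximide in the shallow library. When 1 library at a time was left out, each of the 3 passed only without the other RNPS1 library with cycloheximide, and without that library 123 members were higher and 208 lower, where 12.1% of all exons were higher and 6.22% lower. Without the shallow library 1 member was higher and 2 were lower, where 0.428% of all were higher and 0.381% lower, and none of the 3 named exons was called.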

How the data were processed

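Footprints and RNA-Seq were measured in 15 libraries. Per the submitters' processing notes, the authors used cutadapt 1.16, TopHat2 2.1.1 and bedtools with hg38. The deposited exon table holds raw read counts per exon of named transcripts, and the labels do not state how reads shared by overlapping exons were counted. From these counts, CPM and the density and share ratios were computed per library (Python 3.11.15, pandas 2.3.3, SciPy 1.17.1). CPM were scaled by library totals alone, without TMM factors. Exon by exon, edgeR 4.0.16 in R 4.3.3 (TMM, filterByExpr with a minimum count of 10, quasi-likelihood test, Benjamini-Hochberg threshold 0.05 over all exons) was fitted to the 8 crosslinked libraries and, for RNA-Seq contrasts, to the 6 untreated crosslinked and RNA-Seq libraries. Exon use came from diffSpliceDGE, and DESeq2 1.42.0 was an alternative. The procedures were tested on simulated data. Standard errors are the log2 fold change over the square root of F. Named members are the 5 highest and 5 lowest called per comparison with non-overlapping groups, the 10 of highest mean CPM, up to 4 per gene list by summed count and the 5 longest. The members and gene lists were chosen with earlier results of these data known. In the shallowest library the 95% binomial interval of the share of counts in long internal exons ran from 14.5% to 14.8%, and such intervals cover counting error only. The transcript table was not used here. Some members that the rule for named members picks are not reported here.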

Additional observations from a re-analysis of the deposited data

Results flagged for a closer look

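In 3 long internal exons the response to cycloheximide differed between CASC3 and RNPS1 by the test of the difference itself, the interaction in edgeR's quasi-likelihood fit. The response in CASC3 minus that in RNPS1 was -5.70 ± 1.34 (log2, SE) for DRD4, a dopamine receptor gene (edgeR adjusted p = 0.0132). It was -5.63 ± 1.45 for LINC00937, a noncoding transcript (edgeR adjusted p = 0.0328), and -4.66 ± 1.20 for PLEC, which encodes the cytoskeletal linker plectin (edgeR adjusted p = 0.0325). PLEC had 2.23 and 5.67 CPM in CASC3 with cycloheximide against 101 and 115 without it, and 8.14 and 74.8 CPM in RNPS1 with cycloheximide against 27.6 and 42.7 without it. In RNPS1 the treated libraries lay on both sides of the untreated ones. When 1 of the 8 libraries was left out in turn, each of the 3 calls was lost in 7 of 8 fits, the one without the shallow RNPS1 library among them, and kept without the other RNPS1 library with cycloheximide. The log2 differences then ran from -6.59 to -3.29 for DRD4, from -6.62 to -2.82 for LINC00937 and from -5.48 to -2.45 for PLEC. In the other settings run (size factors, no filter, DESeq2 or the replicate block, and for PLEC the stricter filter), the call was kept in 3 of 4 for DRD4, in 0 of 3 for LINC00937, where DESeq2 gave no adjusted p, and in 2 of 5 for PLEC. The part of GC content in these differences was not tested.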

How the results depend on the processing

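The density difference between footprints and RNA-Seq stayed negative over all members in every alternative run, between -1.09 and -0.95 when 1 library was left out. It no longer passed against all internal exons under 500 nt (-0.59, chosen after seeing the data), where the native mean lay above RNA-Seq under 750 nt, nor where the design could not reach the threshold: -1.03 or -1.02 with a lone RNA-Seq library, -1.43 with the 4 untreated crosslinked and -0.63 with the 5 native libraries. The share difference passed for members of 1000 nt or more (-3.22) and ranged from -4.02 to -3.28 without 1 library, and it turned to 1.65 over all exon counts. Members called in CASC3 against RNPS1 numbered 1 without a filter, 5 with DESeq2, 1 with the replicate block, 21 with the compared groups alone and 1 at 400 nt or more, and 0 to 34 without 1 library. With cycloheximide they numbered 51 without a filter, 0 among exons averaging 10 counts in every group (chosen after seeing the data), 10 alone and 66 at 1000 nt or more, and 0 to 696 without 1 library.

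The cycloheximide response in CASC3 reversed its split with DESeq2 size factors (322), no filter (155), the stricter filter (42), DESeq2 (303), at 1000 nt or more (113) and without the first RNPS1 library with cycloheximide (791). It gave 671 alone and 10 to 791 without 1 library. In RNPS1 the count was 5 with size factors, 1 without a filter, 0 with the stricter filter, 63 with DESeq2, 1 with the replicate block, 0 alone and 0 to 558 without 1 library. The interaction gave 1 with size factors, 0 without a filter, 0 with the stricter filter, 6 at 400 nt, 1 at 1000 nt and 0 to 331 without 1 library. Against RNA-Seq, CASC3 gave 282 with the stricter filter (split reversed), 349 at 1000 nt and 350 to 651 without 1 library. RNPS1 gave 416 (split reversed), 369 and 364 to 817. Exon use in CASC3 gave 66 with the stricter filter and 39 without the second CASC3 library (both reversed), 193 with the replicate block and 3 to 153 without 1 library. In RNPS1 it gave 114, 295 with the replicate block and 22 to 277. Calls over all exons moved with the settings too, so these counts alone do not set long internal exons apart. In the CASC3 response 7.22% of all exons were higher and 11.3% lower in the main fit. The shares were 12.7% and 8.24% with size factors, 8.86% and 7.28% with DESeq2 and 2.96% and 3.64% without a filter. In RNPS1 exon use they were 16.1% and 9.92% with the replicate block, against 12.5% and 7.77% without it. Calls over all exons also moved in fits without 1 library. The causes were not tested.

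Nothing in the labels says that the letters A and B mark a shared batch. The A-minus-B differences correlated at 0.0665 to 0.307 between crosslinked groups and at -0.0042 and 0.0039 between crosslinked groups and RNA-Seq, so the letters were not treated as pairs. The replicate block moved the exon-use counts to 193 in CASC3, against 106 without it, and to 295 in RNPS1, against 193 without it. For single named members, 587 alternative values kept their side of the threshold, 124 lost it and 0 changed sign. Members named per comparison had been chosen as called, with extreme fold changes and non-overlapping groups. The lack of sign changes was thus largely built in and supports nothing. The shallowest libraries were the second of RNPS1 with cycloheximide (467700 counts, 84.8% of members detected) and the second of untreated crosslinked CASC3 (793954 counts, 88.4%), and 94 members had 0 RNA-Seq counts.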
